A study of Mus musculus with 7 samples.

Results

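The 8 genes described here encode 4 neurotrophic factors, *Bdnf*, *Ntf3*, *Gdnf* and *Cntf*, and 4 receptors, *Ntrk2*, *Ntrk3*, *Gfra1* and *Ret*. These receptors carry the signal of BDNF, neurotrophin-3 and GDNF, but not that of CNTF. The 8 genes were taken by symbol from the 21965 genes of the count table, and all 8 were found. RNASeq was performed on the contused T9 spinal cord at dpi 3 (day 3 post-injury), with 1 library per mouse. The 3 libraries labelled *Bmal1*-/- came from 2 females (replicates 1 and 2) and 1 male (replicate 3) of the germ-line *Arntl* knockout B6.129-*Arntl*tm1Bra, and the 4 WT libraries came from 2 females (replicates 1 and 2) and 2 males (replicates 3 and 4) on C57BL/6. All 7 mice received a 50 kdyn contusion, were 8 to 10 weeks old, and gave a 5 mm segment around the epicenter at ZT 3 to 5. Uninjured cord was not analysed here, so that each value is a level in injured tissue and each difference is one between genotypes after SCI. One WT mouse was a littermate of the knockouts and the others were purchased. The deletion was in every cell of the body, so that no value can be assigned to 1 cell type.

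Neurotrophic factors are proteins that keep neurons alive, support axon growth and adjust synapses, and they have long been studied as treatments for SCI. BDNF binds the receptor tyrosine kinase TrkB (*Ntrk2*), and neurotrophin-3 (*Ntf3*) binds TrkC (*Ntrk3*). GDNF binds GFRα1 (*Gfra1*), which is anchored to the membrane without a kinase of its own and presents the ligand to the kinase RET. CNTF belongs to the interleukin-6 family of cytokines and acts on a receptor complex with its own binding subunit (*Cntfr*). In the spinal cord, RET is best known from motor neurons and sensory neurons, while TrkB is made both as a full-length kinase in neurons and as a truncated form in astrocytes.

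The total gene count per library ran from 38529644 to 44096737. Levels are given as CPM, counts scaled by library size and TMM factors, and p-values come from the quasi-likelihood test of edgeR, run over the 15743 genes that passed a filter on low counts. A gene was called changed at a Benjamini-Hochberg adjusted p under 0.05. *Arntl*, the targeted gene, had 22.5 to 24.2 CPM in the libraries labelled *Bmal1*-/- and 11.9 to 15.3 CPM in WT, a log2 fold change of 0.77 (SE 0.10, adjusted p = 0.0155). A count over the whole gene includes reads from any exons that the deletion left, so that it does not check the label. Each direction given here follows the labels of the libraries. *Nr1d1* and *Dbp*, genes that BMAL1 is known to activate, had log2 fold changes of -2.51 (SE 0.15, adjusted p = 0.000456) and -1.85 (SE 0.16, adjusted p = 0.00328). Both went with the label. An antisense gene, *Gm45355*, overlaps exons of *Arntl*, and the strand setting of the counting is not given in the sources used here.

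The WT libraries differed in their levels of cell type markers. The summed level of 7 markers of sensory ganglion neurons was 584 and 331 CPM in WT replicates 1 and 2, the 2 WT females, and 72.4 and 58.0 CPM in WT replicates 3 and 4. In the libraries labelled *Bmal1*-/- it was 90.6 to 107 CPM, and of the 7 markers 7 had a log2 fold change below 0 and 0 were called. *Scn10a*, a sodium channel of pain-sensing ganglion neurons, had 5925, 2770, 127 and 37 counts in WT replicates 1 to 4 and 0, 0 and 1 counts in the libraries labelled *Bmal1*-/-. WT replicate 3 had the lowest summed level of 12 neuron markers, at 2738 CPM against 4672 to 6318 CPM in the other WT libraries and 6506 to 7778 CPM in the libraries labelled *Bmal1*-/-, and 0 of the 12 were called. It also had the highest sum of 7 macrophage markers, 4146 CPM against 2081 to 2900 CPM in the other 6 libraries. The results below are therefore also given without WT replicates 1 and 2, a setting chosen after these levels had been seen. It leaves only males in WT, among them WT replicate 3, so that genotype and sex cannot be fully told apart in it. In bulk tissue, fewer cells of a type and less RNA per cell cannot be told apart.

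BMAL1 binds DNA together with CLOCK at the E-box, and the promoter windows of the 8 genes were therefore read for it. RefSeq (GRCm38.p6) gave 14 windows, each from 250 bases before to 50 bases after a transcript start, for 6 of the 8 genes and none for *Ntrk3* and *Ret*. The E-box CACGTG, which reads the same on both strands, was in 1 of the 14 windows, and 7.15% of all 32851 windows held it. The variant CACGTT, on either strand, was in 0 of 14 (4.68% of all windows), and the full cyclic AMP response element (CRE) TGACGTCA was in 0 of 14 (1.79% of all windows). The CRE variant TCACGTCA, the form through which neuronal activity is known to drive *Bdnf*, was in 1 of 14, a window of *Bdnf*, and 0.441% of all windows held it on either strand. The window that held the E-box belongs to *Ntf3*, at chr6:126166695-126166994 on the minus strand, with its first base 231 bases before the start. It is printed 5′ to 3′ with the E-box in capitals, beside the window of *Ntrk2* at chr13:58806319-58806618 on the plus strand, which held none of the 4 motifs, because these are the 2 genes whose levels did not overlap between the genotypes. The *Bdnf* window at chr2:109692186-109692485 on the plus strand is shown for its CRE variant, in capitals, whose first base lies 38 bases before the start.
Ntf3: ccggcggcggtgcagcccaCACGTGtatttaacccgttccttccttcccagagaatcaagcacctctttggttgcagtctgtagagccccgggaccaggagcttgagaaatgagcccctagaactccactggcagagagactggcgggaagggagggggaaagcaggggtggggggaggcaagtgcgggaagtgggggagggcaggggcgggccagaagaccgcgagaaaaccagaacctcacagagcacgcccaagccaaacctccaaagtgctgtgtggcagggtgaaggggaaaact
Ntrk2: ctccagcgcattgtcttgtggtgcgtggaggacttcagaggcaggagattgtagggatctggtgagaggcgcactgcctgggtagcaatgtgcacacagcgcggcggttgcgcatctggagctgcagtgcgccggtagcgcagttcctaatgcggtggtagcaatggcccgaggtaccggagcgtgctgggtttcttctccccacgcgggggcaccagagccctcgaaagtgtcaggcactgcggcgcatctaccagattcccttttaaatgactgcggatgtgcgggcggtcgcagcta
Bdnf: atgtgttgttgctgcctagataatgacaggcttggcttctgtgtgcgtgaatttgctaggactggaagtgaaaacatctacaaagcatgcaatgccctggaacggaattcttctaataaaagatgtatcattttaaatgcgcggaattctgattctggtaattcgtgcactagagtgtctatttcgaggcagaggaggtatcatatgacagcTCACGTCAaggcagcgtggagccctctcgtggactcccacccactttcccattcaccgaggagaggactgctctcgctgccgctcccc
A match is only a run of letters in this window, and binding was not measured.

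None of the 7 genes that passed the filter on low counts was called, where 1.57% of all genes tested were called in either direction. Without adjustment edgeR put 0 of the 7 under 0.05, where 20.9% of all genes were under it. DESeq2 called 0 of the 8, where it called 1495 of all 18926 genes it tested. Without adjustment it put *Ntrk2* alone under 0.05, as it did 3963 of all genes. Without WT replicates 1 and 2, edgeR called 0 of the 7 and, without adjustment, put *Bdnf* and *Ret* under 0.05, as it did 4463 of 15762 genes. For both genes the libraries left out held the highest values, so that their p-values in this setting carry no evidence. The median log2 fold change of the 7 was 0.04, beside -0.006 over all genes tested. The levels in the libraries labelled *Bmal1*-/- did not overlap those in WT for 1 of the 7, *Ntrk2* (14.3%, beside 26.9% of all genes tested), and for *Ntf3*, which did not pass the filter.

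**Figure D1:**
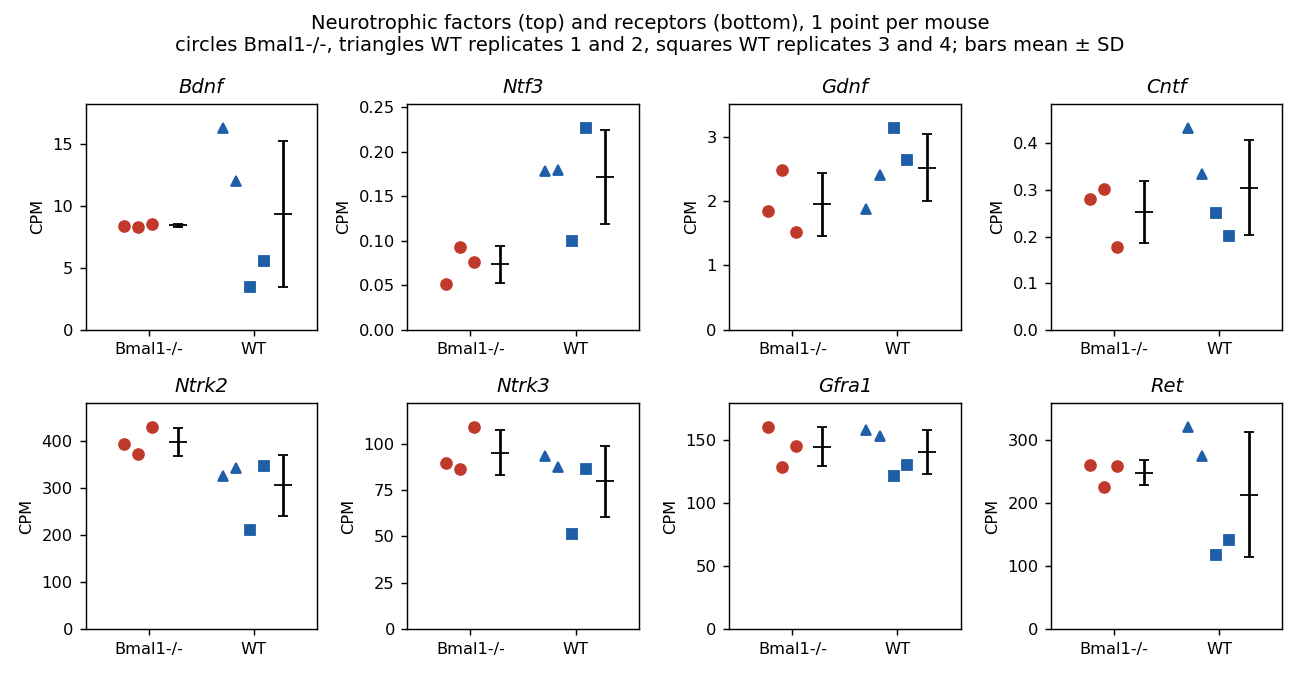
Level (CPM, linear axes from 0) of the 4 factors (top row) and the 4 receptors (bottom row) in each of the 7 mice, with the mean ± SD beside each group. The 3 *Bdnf* points labelled *Bmal1*-/- lie between 8.31 and 8.50 CPM, while the 4 WT points run from 3.45 to 16.3 CPM with replicates 1 and 2 (triangles) on top.

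*Bdnf* (ENSMUSG00000048482; GRCm38 chr2:109674700-109727007, plus strand) encodes brain-derived neurotrophic factor, which supports motor and sensory neurons and strengthens synapses. It had 8.39, 8.31 and 8.50 CPM in replicates 1, 2 and 3 of the libraries labelled *Bmal1*-/-, from 330, 358 and 335 counts. In WT replicates 1 to 4 it had 16.3, 11.95, 3.45 and 5.50 CPM, from 638, 465, 138 and 218 counts. The 3 values labelled *Bmal1*-/- were almost equal and fell in the gap between the 2 high and the 2 low WT values. Mean levels were 8.40 ± 0.097 CPM (SD, n = 3) against 9.29 ± 5.90 CPM in WT (SD, n = 4), with coefficients of variation of 1.15% and 63.5%. Counting error alone corresponds to 5.42% and 5.24% at these counts. The log2 fold change was -0.15 (SE 0.49, 95% interval -1.28 to 0.99, adjusted p = 0.871 by edgeR). The 2 high WT libraries were those with high sensory ganglion markers. Without them the log2 fold change was 0.91 (SE 0.22, unadjusted p = 0.00794, adjusted p = 0.125), which also did not pass. The libraries left out held the highest *Bdnf* values, so that leaving them out set the sign and the p-value carries no evidence. The part of the ganglion markers in the WT level of *Bdnf* was not tested. An antisense gene, *Gm45346*, overlaps exons of *Bdnf*, so that its reads may be shared with it.

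*Ntf3* (ENSMUSG00000049107; chr6:126101412-126166910, minus strand) encodes neurotrophin-3, the factor of proprioceptive sensory neurons and of corticospinal axon growth. Only 2, 4 and 3 counts were found in the libraries labelled *Bmal1*-/- and 7, 7, 4 and 9 counts in WT. As CPM these were 0.051, 0.093 and 0.076 against 0.179, 0.180, 0.0999 and 0.227. Every WT value was above every value labelled *Bmal1*-/-, but by as little as 0.093 against 0.0999 CPM, which are 4 counts each. Pooled over libraries there were 9 of 123941309 counts against 27 of 155880104, a ratio of 0.419 with an exact 95% interval of 0.173 to 0.918 that covers counting error only and not the spread between mice. The gene stayed below the filter of edgeR. Without that filter, edgeR gave a log2 fold change of -1.18 (SE 0.43, unadjusted p = 0.0269, adjusted p = 0.223) and DESeq2 gave -1.21 (adjusted p = 0.301). Markers of skeletal muscle, a tissue known to make neurotrophin-3, did not overlap between the genotypes either. The sum of 7 of them was 5.29 to 6.90 CPM in the libraries labelled *Bmal1*-/- and 48.6 to 64.2 CPM in WT, and 6 of the 7 were called. Their part in the difference of *Ntf3* was not tested.

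*Gdnf* (ENSMUSG00000022144; chr15:7810846-7837575, plus strand) encodes glial cell line-derived neurotrophic factor, a potent survival factor for motor neurons. Its level was 1.86, 2.48 and 1.52 CPM in the libraries labelled *Bmal1*-/- and 1.89, 2.42, 3.15 and 2.65 CPM in WT. Replicates 1 and 3 labelled *Bmal1*-/- lay below all WT values, and replicate 2 lay among them. Mean levels of 1.95 ± 0.49 CPM (SD, n = 3) against 2.52 ± 0.52 CPM in WT (SD, n = 4) gave a log2 fold change of -0.37 (SE 0.24, 95% interval -0.92 to 0.19, adjusted p = 0.370). The difference was within the spread between mice. The log2 fold change was -0.57 (SE 0.26, adjusted p = 0.208) without WT replicates 1 and 2, which held the lowest WT values. Without replicate 2 labelled *Bmal1*-/-, the highest of that label, it was -0.58. Leaving these libraries out could only widen the difference, so that its sign could not turn there. Without replicate 3 labelled *Bmal1*-/-, the lowest of that label, the log2 fold change was -0.22. WT replicate 3, with the highest macrophage marker sum and the lowest neuron marker sum, had the highest *Gdnf*. Replicate 2 labelled *Bmal1*-/- had a sum of 7 fibroblast markers of 3202 CPM, against 1224 and 1013 CPM in replicates 1 and 3 of that label. In WT this sum was 2531 to 3168 CPM. The part of these markers in the level of *Gdnf* was not tested.

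*Cntf* (ENSMUSG00000079415; chr19:12763660-12765632, minus strand) encodes ciliary neurotrophic factor, made by Schwann cells and astrocytes and known to protect motor neurons and oligodendrocytes. The libraries labelled *Bmal1*-/- gave 0.280, 0.302 and 0.178 CPM, and WT gave 0.434, 0.334, 0.250 and 0.202 CPM, from 7 to 17 counts a library. The groups overlapped, with the highest values in WT replicates 1 and 2. The log2 fold change was -0.26 (SE 0.35, 95% interval -1.08 to 0.56, adjusted p = 0.656), and it was 0.16 without these 2 libraries. *Cntf* lies within exons of *Zfp91* on the same strand, so that reads may have been left uncounted and its level is uncertain. Counting error alone corresponds to a coefficient of variation of 31.1% and 28.9% at these counts.

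*Ntrk2* (ENSMUSG00000055254; chr13:58806569-59133970, plus strand) encodes TrkB, the receptor of BDNF. It had 394, 371 and 429 CPM in the libraries labelled *Bmal1*-/- and 325, 343, 210 and 346 CPM in WT. All 3 values labelled *Bmal1*-/- were above all 4 WT values, as for 13.4% of all genes tested. WT replicate 3 was far below the other WT libraries, which lay within 325 to 346 CPM. Mean levels were 398 ± 29.2 CPM (SD, n = 3) against 306 ± 64.7 CPM in WT (SD, n = 4), and the log2 fold change was 0.38 (SE 0.18, 95% interval -0.03 to 0.79, adjusted p = 0.261). Without WT replicate 3 it was 0.24. Without WT replicates 1 and 2, which keeps the low replicate 3 in WT, it was 0.52 (SE 0.22, adjusted p = 0.193). The call was not reached in either setting. Since the groups did not overlap, leaving out WT libraries could not turn the direction. Of the 12 neuron markers, 12 had a log2 fold change above 0 and 7 did not overlap between the genotypes, beside 26.9% of all genes tested. WT replicate 3 also had the lowest sum of these markers. The 10 astrocyte markers were mixed, with 4 below 0. *Slc1a2*, a glutamate transporter of astrocytes, had 1921 to 2052 CPM in the libraries labelled *Bmal1*-/- and 842 to 1665 CPM in WT, while *Aldh1l1*, an enzyme of astrocytes, had 117 to 139 CPM and 143 to 209 CPM. The part of either list in the difference was not tested. The annotation holds 10 transcripts of *Ntrk2*, and a count per gene cannot separate the full-length from the truncated receptor.

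*Ntrk3* (ENSMUSG00000059146; chr7:78175959-78738012, minus strand) encodes TrkC, the receptor of neurotrophin-3. The libraries labelled *Bmal1*-/- held 89.7, 86.5 and 108.8 CPM, and WT held 93.6, 87.5, 51.2 and 86.5 CPM. All values but the highest, in replicate 3 labelled *Bmal1*-/-, and the lowest, in WT replicate 3, lay close together. The log2 fold change was 0.25 (SE 0.20, 95% interval -0.22 to 0.73, adjusted p = 0.455). Without WT replicate 3 it was 0.09, and without WT replicates 1 and 2 it was 0.46 (SE 0.24, adjusted p = 0.244). *Ntrk3* lies on the same chromosome as *Arntl* (chr7:113207465-113314126).

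*Gfra1* (ENSMUSG00000025089; chr19:58235604-58455909, minus strand) encodes the GDNF-binding co-receptor. Its level was 160, 129 and 146 CPM with the *Bmal1*-/- label and 158, 153, 121 and 130 CPM in WT. The ranges covered each other almost wholly. Mean levels were 145 ± 15.7 CPM (SD, n = 3) against 141 ± 17.8 CPM in WT (SD, n = 4), and the log2 fold change of 0.04 (SE 0.12) had a 95% interval of -0.24 to 0.32 (adjusted p = 0.842). It was 0.20 (SE 0.11, adjusted p = 0.268) without WT replicates 1 and 2. An antisense gene, *Gm16277*, overlaps its exons.

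*Ret* (ENSMUSG00000030110; chr6:118151745-118197718, minus strand) encodes the kinase that GFRα1 and GDNF bring into action. The libraries labelled *Bmal1*-/- held 259, 225 and 259 CPM, and WT held 320, 274, 117 and 142 CPM. As with *Bdnf*, the values labelled *Bmal1*-/- fell in the gap between WT replicates 1 and 2 above and WT replicates 3 and 4 below. Mean levels were 248 ± 19.6 CPM (SD, n = 3) against 213 ± 99.1 CPM in WT (SD, n = 4), with coefficients of variation of 7.91% and 46.5%. The log2 fold change was 0.22 (SE 0.35, 95% interval -0.59 to 1.03, adjusted p = 0.708). It moved to 0.015 without WT replicate 3, 0.065 without WT replicate 4, 0.36 without WT replicate 2 and 0.48 without WT replicate 1. Without both WT replicates 1 and 2 it was 0.94 (SE 0.12, unadjusted p = 0.000455, adjusted p = 0.0777). This missed the threshold in a comparison of 3 mice with 2 WT males. The libraries left out held the highest *Ret* values, so that leaving them out raised the log2 fold change and the p-value carries no evidence. *Isl1* and *Prph*, markers shared by motor and ganglion neurons, were also highest in WT replicates 1 and 2, at 10.1 and 7.12 CPM and at 295 and 231 CPM, against 1.08 to 1.81 CPM and 59.8 to 88.1 CPM in the other 5 libraries. The other 4 motor neuron markers, *Chat*, *Slc5a7*, *Mnx1* and *Slc18a3*, had log2 fold changes of 0.57 to 0.77, and 0 of the 6 were called.

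**Figure D2:**
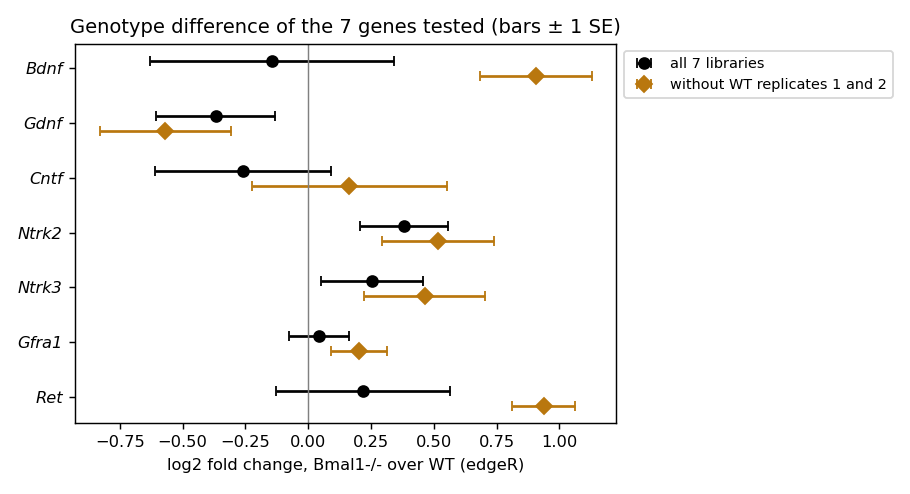
Log2 fold change (libraries labelled *Bmal1*-/- over WT, bars ± 1 SE from edgeR) of the 7 genes tested, with all 7 libraries (circles) and without WT replicates 1 and 2 (diamonds). *Bdnf* moves from -0.15 to 0.91 and *Ret* from 0.22 to 0.94, while *Ntrk2* stays between 0.38 and 0.52.

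Per length of merged exons, the mean levels of the 4 receptors were above those of the 4 factors. In WT the level was 31.5 ± 14.7 CPM per kb for *Ret*, 25.7 ± 3.25 for *Gfra1*, 15.9 ± 3.35 for *Ntrk2*, 2.64 ± 0.64 for *Ntrk3*, 1.49 ± 0.95 for *Bdnf*, 0.687 ± 0.142 for *Gdnf*, 0.284 ± 0.095 for *Cntf* and 0.09995 ± 0.031 for *Ntf3* (SD, n = 4). The libraries labelled *Bmal1*-/- had the same order, with means of 36.6, 26.5, 20.6, 3.15, 1.35, 0.532, 0.236 and 0.043 CPM per kb. In WT the ranges of neighbours in this order overlapped for *Ret* with *Gfra1*, *Ntrk3* with *Bdnf*, and *Bdnf* with *Gdnf*, and the other neighbours did not overlap. *Ntrk3* has 20 annotated transcripts over 30170 bases of merged exons, so that its level per length depends on which transcripts are made.

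Within each library, 4 ratios of a factor to its receptor and the ratio of *Gfra1* to *Ret*, a co-receptor to its kinase, were compared between genotypes with two-sided exact permutation tests over the 7 libraries, where 35 splits allow no p under 0.0286. The log2 ratio of *Ntf3* to *Ntrk3* was -9.80, -9.24 and -9.75 in the libraries labelled *Bmal1*-/- and -8.68, -8.57, -8.42 and -8.29 in WT. All 3 values labelled *Bmal1*-/- were lower, a difference of -1.11 with the smallest p the exact test can give (p = 0.0286, 0.143 after Benjamini-Hochberg adjustment over the 5 ratios), and it rests on the 2 to 9 counts of *Ntf3* given above. The log2 ratio of *Bdnf* to *Ntrk2* differed by -0.30 (exact p = 0.543), that of *Gdnf* to *Gfra1* by -0.41 (exact p = 0.229), that of *Gfra1* to *Ret* by -0.30 (exact p = 0.429) and that of *Cntf* to *Cntfr* by -0.42 (exact p = 0.286). These 4 differences were within the spread between mice.

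Likeness across the 7 libraries is described with no test, since the points share their libraries. Pearson's r of log2 CPM was highest between *Bdnf* and *Ret* (0.95) and between *Ntrk2* and *Ntrk3* (0.95), and was also positive between these pairs, from 0.57 for *Bdnf* with *Ntrk2* to 0.77 for *Ret* with *Ntrk3*. *Gfra1* had an r of 0.87 with *Ret* and 0.82 with *Bdnf*. *Gdnf* ran opposite to *Bdnf* and the 4 receptors, with r from -0.82 to -0.62. Among 14352 genes with a mean of at least 1 CPM, the genes most like *Ntrk2* were *Cntn1* (r = 0.999), an adhesion molecule of axons and glia, and *Cacng2* (r = 0.998), a subunit of AMPA receptors. *Amer2* was among the genes most like *Ntrk3* (r = 0.999). *Ret* was closest to *Reep1* (r = 0.992), which shapes the endoplasmic reticulum in axons, and *Ahnak2* (r = 0.990). *Bdnf* was closest to *Angel1* (r = 0.995) and *Atrnl1* (r = 0.990), *Gdnf* to *Tmem82* (r = 0.995) and *Rassf2* (r = 0.990), *Cntf* to *Fchsd1* (r = 0.971) and *Dcbld2* (r = 0.966), and *Gfra1* to *Nudt17* (r = 0.960) and *Zbtb41* (r = 0.954). With 7 libraries and so many genes, values of this size are the best of very many.

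**Figure D3:**
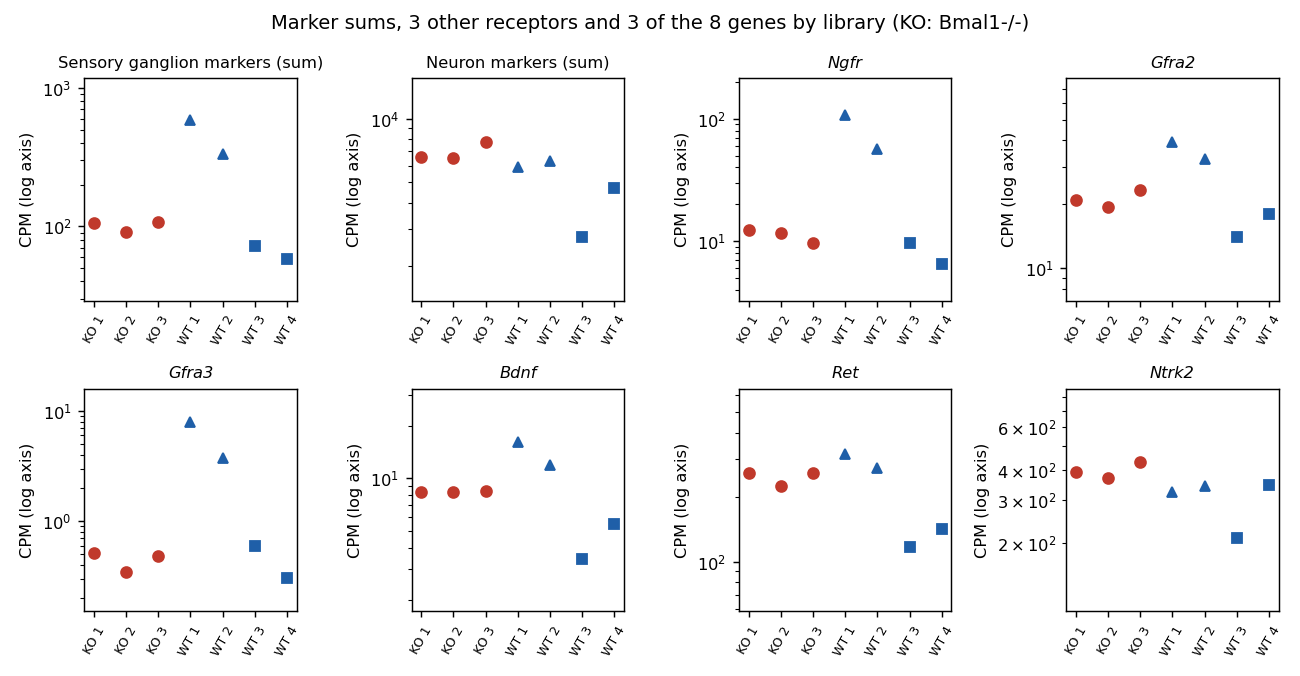
Levels (CPM, log axes) in each library of the summed sensory ganglion and neuron markers, of the receptors *Ngfr*, *Gfra2* and *Gfra3*, and of *Bdnf*, *Ret* and *Ntrk2*. WT replicates 1 and 2 (triangles) are highest for the ganglion sum, at 584 and 331 CPM, and for *Ngfr*, *Gfra2*, *Gfra3*, *Bdnf* and *Ret*, while *Ntrk2* is lowest in WT replicate 3.

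The other genes of these pathways were read from the same comparison, as 56 genes in 7 lists of which 53 were tested. One of the 53 was called higher and 0 lower, beside 0.654% and 0.915% of all genes tested, and 15 had an unadjusted p under 0.05 (28.3%, beside 20.9%). DESeq2, which called 1495 of 18926 genes, called 6 lower (*Gfra3*, *Shc1*, *Dok4*, *Spry2*, *Dusp5* and *Etv5*) and 2 higher (*Plat* and *Dusp4*). The gene called by both was *Plat*, which encodes tissue plasminogen activator, a protease that starts the conversion of pro-BDNF to mature BDNF through plasmin and also dissolves clots. It had 360, 400 and 316 CPM in the libraries labelled *Bmal1*-/- and 125, 116, 133 and 121 CPM in WT. Every value labelled *Bmal1*-/- was above every WT value by a wide margin, and WT replicates 1 and 2 lay among the other WT libraries. The log2 fold change was 1.53 (SE 0.09, adjusted p = 0.000557), and 1.49 (adjusted p = 0.0326) without WT replicates 1 and 2. Of the other 4 processing enzymes, *Furin*, which cleaves pro-neurotrophins within the cell, was the lowest at -0.10 (adjusted p = 0.550), and none was called.

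Among the neurotrophins and their other receptors 0 of 5 were called, with a median log2 fold change of 0.24. *Ngfr*, the receptor shared by all neurotrophins, was highest in WT replicates 1 and 2, at 106.9 and 56.8 CPM against 6.51 to 12.3 CPM in the other 5, and its log2 fold change moved from -2.01 (SE 0.95, adjusted p = 0.268) to 0.47 without these 2 libraries. *Sorcs3*, a sorting receptor, was the highest of the list at 0.31 (adjusted p = 0.493), *Sort1*, which binds pro-neurotrophins, was at 0.24 (adjusted p = 0.248), and *Ntf5*, which encodes neurotrophin-4, was listed with 0 to 0.102 CPM and was not tested.

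In the lists of the GDNF and CNTF families edgeR called 0 of 7 and 0 of 9, with medians of 0.05 and -0.003. *Gfra3*, the co-receptor of artemin, was highest in the same libraries, with 7.88 and 3.75 CPM in WT replicates 1 and 2 against 0.303 to 0.599 CPM in the other 5 libraries, and its log2 fold change moved from -2.81 (SE 1.11, adjusted p = 0.219) to -0.02 without them. DESeq2 called it with all 7 libraries (-2.80, adjusted p = 0.0351). *Gfra2*, the co-receptor of neurturin, had 39.1 and 32.5 CPM there against 14.03 to 23.2 CPM, and moved from -0.29 to 0.40. *Gfra4* was at 0.39 (adjusted p = 0.272). Of the ligands, *Artn* was at 0.45 (SE 0.34, adjusted p = 0.432) and *Nrtn* at -0.22 (adjusted p = 0.555), and *Pspn* was too low to be tested, with 0 to 0.0999 CPM. *Cntfr*, the binding subunit for CNTF, was at 0.19 (SE 0.15, adjusted p = 0.465), and its signalling partners *Lifr* and *Il6st* were at -0.07 (adjusted p = 0.885) and -0.04 (adjusted p = 0.836). *Lif*, an injury-induced cytokine of the same family, was the highest of its list at 0.44 (SE 0.18, adjusted p = 0.230) and *Osm*, oncostatin M, the lowest at -0.43 (SE 0.36, adjusted p = 0.471).

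Of the other secreted factors and of the signalling genes downstream edgeR called none, while DESeq2 called the 6 signalling genes named above. Midkine (*Mdk*), a heparin-binding growth factor, was the lowest of its list at -0.60 (SE 0.22, adjusted p = 0.196), with all 3 values labelled *Bmal1*-/- below the 36.3 to 62.4 CPM of WT, and *Vgf*, a neuropeptide precursor induced by BDNF, the highest at 0.29 (SE 0.14, adjusted p = 0.264). Among 12 adaptors of Trk and RET, *Dok4*, which couples RET to its downstream kinases, was at -1.42 (SE 0.45, adjusted p = 0.163) and its relative *Dok5* at 0.25 (adjusted p = 0.182). *Dok4* was highest in WT replicates 1 and 2, at 58.5 and 43.6 CPM, and its log2 fold change was -0.49 without them. Of 10 feedback targets of receptor tyrosine kinases, genes that Erk signalling is known to induce, 8 had a log2 fold change below 0, with a median of -0.26 beside -0.006 over all genes tested. In 5 of them every value labelled *Bmal1*-/- was below every WT value, and in 1 every value labelled *Bmal1*-/- was above, beside 13.5% and 13.4% of all genes tested. *Dusp5*, an Erk phosphatase, had 6.89, 6.87 and 5.71 CPM in the libraries labelled *Bmal1*-/- and 11.8, 11.2, 16.7 and 9.61 CPM in WT, a log2 fold change of -0.92 (SE 0.20, adjusted p = 0.0738 by edgeR and 0.00082 by DESeq2). *Dusp4*, a related phosphatase, was at 0.49 (SE 0.13, adjusted p = 0.123 by edgeR and 0.0115 by DESeq2). *Dusp5* was -1.02 and *Dusp4* 0.55 without WT replicates 1 and 2, so that neither rested on them. These kinases are also driven by many growth factors other than those described here.

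**Figure D4:**
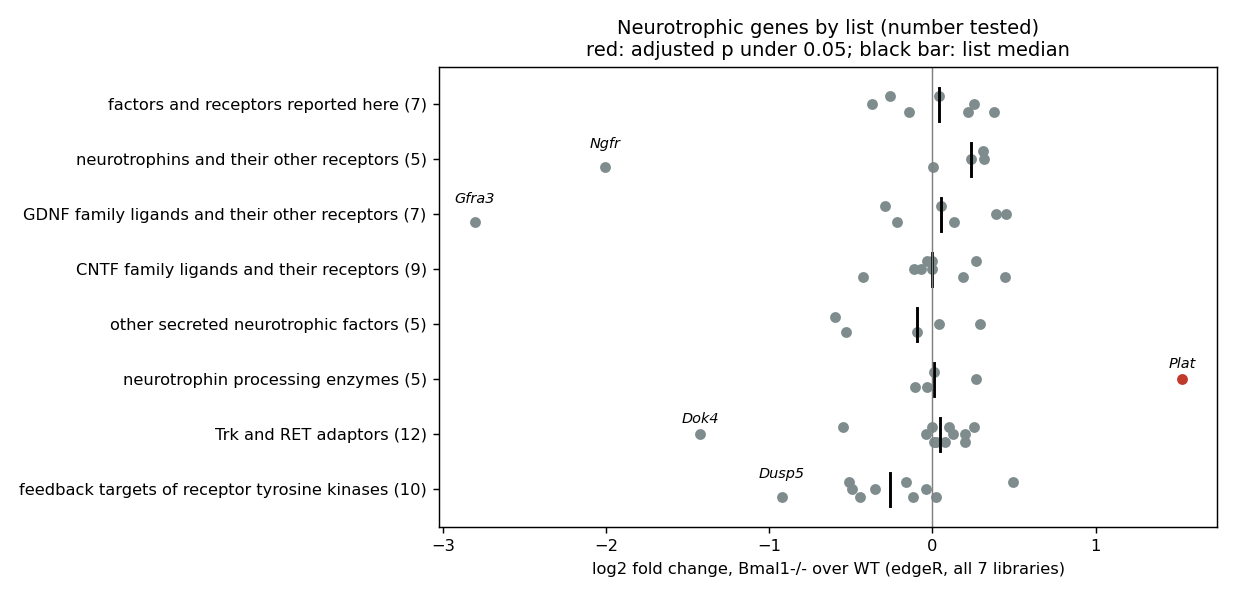
Log2 fold change (libraries labelled *Bmal1*-/- over WT, all 7 libraries) of each tested neurotrophic gene, by list, with the number tested in parentheses and the list median as a black bar. *Plat*, at 1.53, is the 1 gene with an adjusted p under 0.05 (red), and *Gfra3*, *Ngfr* and *Dok4* lie far to the left at -2.81, -2.01 and -1.42 without passing.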

How the data were processed

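The members, gene lists and tests were chosen with earlier results of these data known. The authors sequenced stranded poly-A libraries, checked them with FastQC 0.10.1, aligned them to GRCm38.p6 with Tophat2 and deposited raw counts per gene made with HTSeq 0.10.0 (versions per the labels). The values are whole numbers without normalization. The annotation release and strand setting of the counting are not given in the sources used here.

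Of 21965 genes, 21939 were matched to a symbol, and 3039 had no count in any library. Genes were filtered with filterByExpr, scaled with TMM and tested on genotype over all 7 libraries with edgeR's quasi-likelihood test (edgeR 4.0.16, R 4.3.3) and Benjamini-Hochberg adjustment at 0.05. The script was tested on simulated data. Library totals were 38529644 to 44096737, and counting error, the inverse square root of the mean count, was largest for *Ntf3* and *Cntf* among the members. Log2 CPM used a prior count of 2. Gene positions, overlaps and merged exon lengths came from GENCODE release M21, and levels per kb divide CPM by that length. The genes named are the 8 members, *Arntl*, the called genes and the highest and lowest gene of each list, the partners of the members, and the 2 genes most like each member. Some genes that meet this rule are not reported here, and the lists and counts leave out those of the neurotrophin list. *Nr1d1*, *Dbp*, *Shc1*, *Spry2*, *Etv5* and the cell markers were named after their values were seen. Replicate numbers do not pair the mice, whose numbers only name them. The alternatives were DESeq2 1.42.0, limma-voom (limma 3.58.1), RLE and upper-quartile scaling, 2 other filters, sex as a covariate, a replicate block and each library left out. A fit without WT replicates 1 and 2, the WT females, was added after seeing the data. Whether mice of a group shared a cage or litter beyond the 1 littermate is not given in the sources used here, so that p-values measure the spread between these libraries.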

Additional observations from a re-analysis of the deposited data

Results flagged for a closer look

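Of 38 values checked, 4 had 1 WT library far from the other 3 by Dixon's criterion for the gap of a sample over the range of its group, where chance gives about 1 in 20 groups. In WT replicate 3, *Ntrk2* was at 209.9 CPM against 325 to 346 CPM in the other WT libraries, and *Ntrk3* was at 51.2 CPM against 86.5 to 93.6 CPM. In the same library *Gfra4* was at 8.54 CPM against 13.3 to 13.7 CPM, and *Spry2*, a feedback inhibitor of receptor tyrosine kinases, was at 45.0 CPM against 37.6 to 38.5 CPM. This library also had the lowest neuron marker sum of all 7, 2738 CPM. The part of the cell makeup in these values was not tested.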

How the results depend on the processing

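None of the 8 factors and receptors was called in any setting that tested it, and *Plat* was called in every one except the replicate block, where its log2 fold change was 1.52 (adjusted p = 0.116). Over all genes, 144 were lower and 103 higher with edgeR, 922 and 573 with DESeq2, 0 and 0 with the replicate block, 27 to 439 and 30 to 291 with 1 library left out, and 15 and 26 without WT replicates 1 and 2. Of the other neurotrophic genes, 0 lower and 1 higher became 6 and 2 with DESeq2, 0 and 0 with the block, and 0 to 2 and 1 to 2 with 1 library left out: *Lif* (0.62), *Dusp5* (-0.74) and *Etv5* (-0.43) passed without WT replicate 3, which also gave the 439 and 291. The correlations of same-numbered libraries were -0.17, 0.18 and -0.29, and 1 of 3 libraries labelled *Bmal1*-/- correlated best with its own number, so that the block result is not a paired one. *Bdnf* turned to 0.11 with limma-voom, ran from -0.42 to 0.27 with 1 library left out (above 0 without WT replicate 1) and was 0.91 without WT replicates 1 and 2. With 1 library left out, *Gfra1* ran from -0.035 to 0.12 (below 0 without replicate 1 labelled *Bmal1*-/- or WT replicate 3), *Il6st* from -0.082 to 0.046 (above 0 without replicate 3 labelled *Bmal1*-/-) and *Lifr* from -0.23 to 0.12 (above 0 without WT replicate 1 or 2). Without both of the latter, *Cntf* was 0.16, *Ngfr* 0.47, *Gfra2* 0.40, *Lifr* 0.43 and *Il6st* 0.047. *Arntl* kept its direction (0.71 to 0.82 with 1 library left out, 0.90 without WT replicates 1 and 2), but lost its call with the block, without these 2, and without any 1 of the libraries labelled *Bmal1*-/- or WT replicate 4. The log2 ratio of *Bdnf* to *Ntrk2* was -0.54 to 0.013 with 1 library left out and 0.38 without WT replicates 1 and 2. That of *Ntf3* to *Ntrk3* was -1.29 to -1.01 and -1.25, where exact tests give no p under 0.0667. Depth was lowest for *Ntf3* (2 to 9 counts) and *Cntf* (7 to 17). With 1 library left out *Ret* ran from 0.015 to 0.48 and *Gdnf* from -0.58 to -0.22. The cause of these shifts was not tested.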
